A study of Homo sapiens with 9 samples.

Results

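The replication-dependent histone genes of HK1 cells are described here. HK1 is a human nasopharyngeal carcinoma cell line of squamous origin. Members were the protein-coding genes whose GENCODE release 29 symbol starts with HIST1H, HIST2H, HIST3H or HIST4H, matched by Ensembl gene ID. There were 71 of them among 59107 gene entries: 6 H1, 17 H2A, 18 H2B, 15 H3 and 15 H4 genes. By gene cluster, 55 were HIST1 genes on chromosome 6, 12 were HIST2 genes and 3 were HIST3 genes on chromosome 1, and 1 was the HIST4 gene on chromosome 12. RNA was sequenced from 9 libraries, 3 per group: cells transfected with an E2F3 siRNA, with an E2F1 siRNA, or with a non-targeting control siRNA. Each siRNA was used at 100 nM for 48 h in the same serum-containing medium. The labels give neither the siRNA sequences nor any selection of polyadenylated RNA, and name no separate cultures behind the 3 libraries per group. P-values therefore measure the spread between these libraries, which may be technical.

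Both target genes were lower in the libraries labelled as silenced. E2F3 had 12.6, 10.5 and 11.0 FPKM (the fragments of a gene relative to its length and to the library, a level per length) after E2F3 siRNA, 29.2, 27.8 and 29.2 FPKM after E2F1 siRNA, and 24.7, 27.2 and 24.4 FPKM in control. E2F1 had 21.2, 23.0 and 21.0 FPKM after E2F3 siRNA, 7.17, 7.95 and 7.33 FPKM after E2F1 siRNA, and 19.9, 19.5 and 20.2 FPKM in control. All 11 squamous epithelial markers examined exceeded 1 FPKM in every library, against 1 of 5 leukocyte, 1 of 5 fibroblast and 0 of 3 endothelial markers. The summed squamous markers lay at 1993 to 2097 FPKM after E2F3 siRNA, 2081 to 2195 FPKM after E2F1 siRNA and 2898 to 2930 FPKM in control; whether this has a part in the histone values was not tested. Mitochondrial genes took 16.4 to 17.1% of the FPKM total after E2F3 siRNA, 14.0 to 15.3% after E2F1 siRNA and 15.6 to 16.5% in control.

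Replication-dependent histone genes supply the linker histone H1 and the core histones H2A, H2B, H3 and H4 that package newly made DNA during S phase. Their mRNAs normally lack introns and a poly(A) tail and end just past a conserved stem-loop, which the stem-loop binding protein SLBP recognises and the U7 small nuclear ribonucleoprotein helps to cut. Transcription of the clusters depends on the coactivator NPAT, a substrate of cyclin E and CDK2. E2F1 and E2F3 are transcription factors of the RB pathway that drive genes of S phase entry. Some histone genes also give spliced or polyadenylated transcripts, which in other cell systems are known to accumulate when cells leave the cycle or differentiate.

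The stem-loop sequences are shown because a transcript that ends at the loop and one that runs past it are counted under the same gene. A 3′ UTR was annotated for 36 of the 71 members, and a match to the histone stem-loop was found in 31 of those, 22 to 67 bases after the stop codon. The lines below give 5 flanking bases on each side in lower case and the 16-base stem-loop in capitals, read 5′ to 3′ on the gene's own strand from GENCODE transcripts.
HIST1H2AC: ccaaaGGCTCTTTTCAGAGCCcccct
HIST1H2BC: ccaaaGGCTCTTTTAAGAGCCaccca
HIST1H2BD: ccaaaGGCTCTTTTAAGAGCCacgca
HIST1H2AG: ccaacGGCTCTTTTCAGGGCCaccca
HIST1H4J: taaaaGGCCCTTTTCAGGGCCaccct
HIST2H4A: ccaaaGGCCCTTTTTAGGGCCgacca
The form in HIST1H2AC was the commonest, with 17 members from the H2A, H2B and H3 classes. The form shared by HIST1H2BC and HIST1H2BD had 5 members, from H2B and H3. The forms of HIST1H4J (5 members) and HIST2H4A (3 members) were found only in H4 genes among these matches, and that of HIST1H2AG in no other member. In 22 members the annotation ran more than 100 bases past the loop. HIST1H2AC carried 1114 annotated bases past it, HIST1H2AG 1761 and HIST2H2BE 1729, whereas HIST1H2BD carried 39 and HIST1H4J 6. HIST1H2BD and HIST1H2BC each have a single-exon transcript that holds the loop and a spliced one whose 3′ UTR holds none. The deposited values are per gene and do not separate these transcripts. HIST1H2BK, HIST1H1C and HIST1H2BO have only a coding sequence in this annotation, so no loop could be looked for.

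Promoters were examined next, since E2F proteins bind DNA near the starts of their target genes. RefSeq promoter windows (GRCh38.p14, 250 bases before to 50 after the start) were matched for 66 members; HIST1H4A, HIST1H2AH, HIST1H3J, HIST1H3I and HIST1H4C had no entry. The 3 windows below belong to members that rose after E2F3 siRNA and are read 5′ to 3′ in the direction of the gene, with motif matches in capitals. HIST1H2AC lies at chr6:26123922-26124221 (plus strand), HIST1H2BD at chr6:26157872-26158171 (plus strand) and HIST1H2BK at chr6:27146806-27147105 (minus strand).
HIST1H2AC: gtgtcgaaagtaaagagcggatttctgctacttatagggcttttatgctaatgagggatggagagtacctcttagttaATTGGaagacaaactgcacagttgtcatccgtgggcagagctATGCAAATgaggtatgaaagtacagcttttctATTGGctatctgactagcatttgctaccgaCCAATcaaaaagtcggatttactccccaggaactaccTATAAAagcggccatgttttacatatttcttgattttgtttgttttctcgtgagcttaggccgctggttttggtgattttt
HIST1H2BD: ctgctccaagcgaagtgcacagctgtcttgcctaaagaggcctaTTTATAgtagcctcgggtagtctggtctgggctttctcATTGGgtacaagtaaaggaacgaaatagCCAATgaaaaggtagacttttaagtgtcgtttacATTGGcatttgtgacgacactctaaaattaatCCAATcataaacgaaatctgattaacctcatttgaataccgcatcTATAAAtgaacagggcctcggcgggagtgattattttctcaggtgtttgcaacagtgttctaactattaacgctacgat
HIST1H2BK: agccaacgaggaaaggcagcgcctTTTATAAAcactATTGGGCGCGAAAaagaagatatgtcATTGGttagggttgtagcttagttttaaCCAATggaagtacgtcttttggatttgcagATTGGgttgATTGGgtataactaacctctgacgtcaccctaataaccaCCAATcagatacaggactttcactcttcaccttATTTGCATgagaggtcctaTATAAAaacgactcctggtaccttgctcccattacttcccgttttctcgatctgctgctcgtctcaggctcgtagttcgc
The motifs were searched on both strands. The box of the basal machinery was searched as TATAAA, and the box bound by the factor NF-Y as CCAAT. E2F sites were searched as TTTCCCGC, as TTTGGCGC or as TTTCGCGC. The octamer of the factor OCT1 was searched as ATTTGCAT, and the H1 box as AAACACA. Matches of the same motif could overlap each other, and matches of different motifs overlapped in 0 of the 66 windows. CCAAT was present in 84.8% of the members' windows, against 34.6% of all 35116 RefSeq windows of this length. TATAAA was present in 68.2%, against 11.5%. An E2F site was present in 19.7%, against 2.74%. The octamer was present in 37.9%, against 1.77%, and was confined to 11 of 16 H2A and 14 of 18 H2B windows. The H1 box was found in 6 of 6 H1 windows and in 13.6% of all members' windows, against 5.64%. H4 stood apart in CCAAT, with a match in 3 of 13 windows, while every H1, H2A, H2B and H3 window had it. Genes of a divergent pair share bases of their windows, so the same match can count for both.

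**Figure D1:**
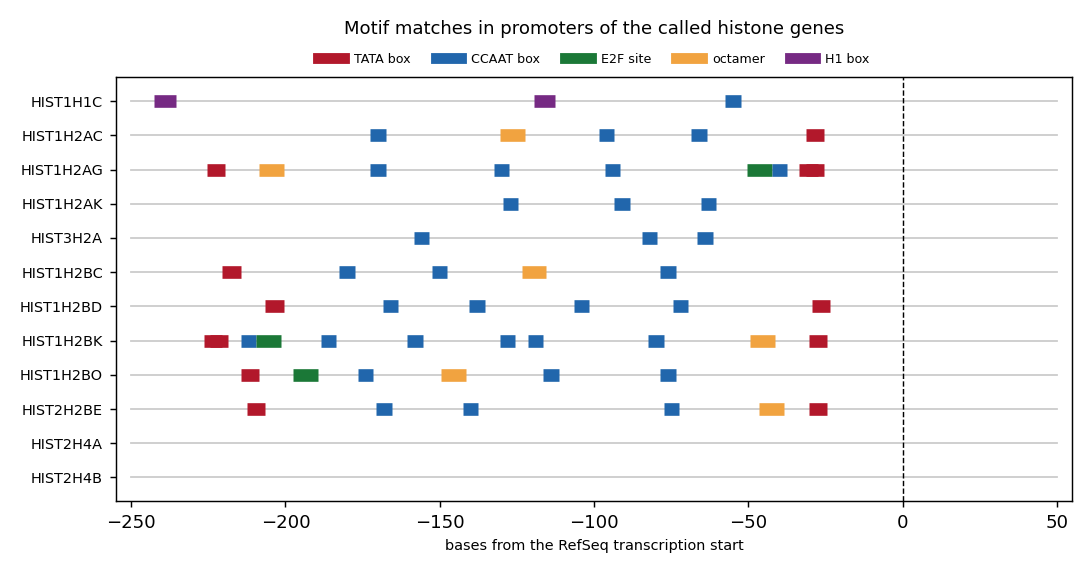
Motif matches (coloured blocks) in the RefSeq promoter windows of the 12 histone genes called in at least 1 comparison, by distance in bases from the transcription start (dashed line). E2F sites appear in HIST1H2AG, HIST1H2BK and HIST1H2BO, 3 of the 12 windows, and HIST2H4A and HIST2H4B hold no match.

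Levels were low for most members. In all 9 libraries 14 genes were listed at 0, 2 each in H1, H2A and H4 and 4 each in H2B and H3. Among them were HIST1H2AA and HIST1H2BA, which are known from the testis. Of the 57 others, 24 reached 1 FPKM in at least 3 libraries and were tested: 1 H1, 9 H2A, 7 H2B, 2 H3 and 5 H4 genes. Only 8 members averaged 5 FPKM or more over the 9 libraries. HIST1H2BK, an H2B gene, was the highest of all. It had 116, 125 and 116 FPKM after E2F3 siRNA, 103, 113 and 105 FPKM after E2F1 siRNA, and 78.2, 78.0 and 80.2 FPKM in control. HIST1H1C, which encodes the linker histone H1.2, came next at 20.3 ± 0.32 FPKM in control (SD, n = 3).

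The FPKM of short genes rest on few fragments. The values of single-exon genes of 900 to 1500 bases fell on whole steps when 255 bases were taken off the annotated length (94.3 to 96.4% of low values within 0.25 of a whole step), as they would with an effective length of that kind, which the labels do not mention. The 255 bases and the depth of each library were themselves chosen for the best agreement with whole steps in these genes. In shorter single-exon genes, not used for that choice, 83.2 to 94.5% of low values lay on a step. On the same scale the libraries' depths were 0.977, 0.964 and 0.982 of the first control library after E2F3 siRNA, 0.906, 0.884 and 1.13 after E2F1 siRNA, and 1, 0.846 and 1.2 in control. Steps also came out for members with a single one-exon transcript (99 of 114 values under 6.5 fragments). For a gene of 381 bases, 1 fragment was then worth 0.275 FPKM in the first control library. HIST1H2BK rested on an estimated 413, 438 and 415 fragments after E2F3 siRNA, 339, 364 and 431 after E2F1 siRNA, and 284, 240 and 350 in control. HIST1H2AK rested on an estimated 1.34 to 10.5 fragments per library and HIST1H2BO on 3.89 to 15.6. For HIST1H2AK only 1 of its 5 values under 6.5 fragments lay on a step, so its estimate is rough. Of the 15 tested members for which this could be estimated, 7 averaged under 20 fragments.

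**Figure D2:**
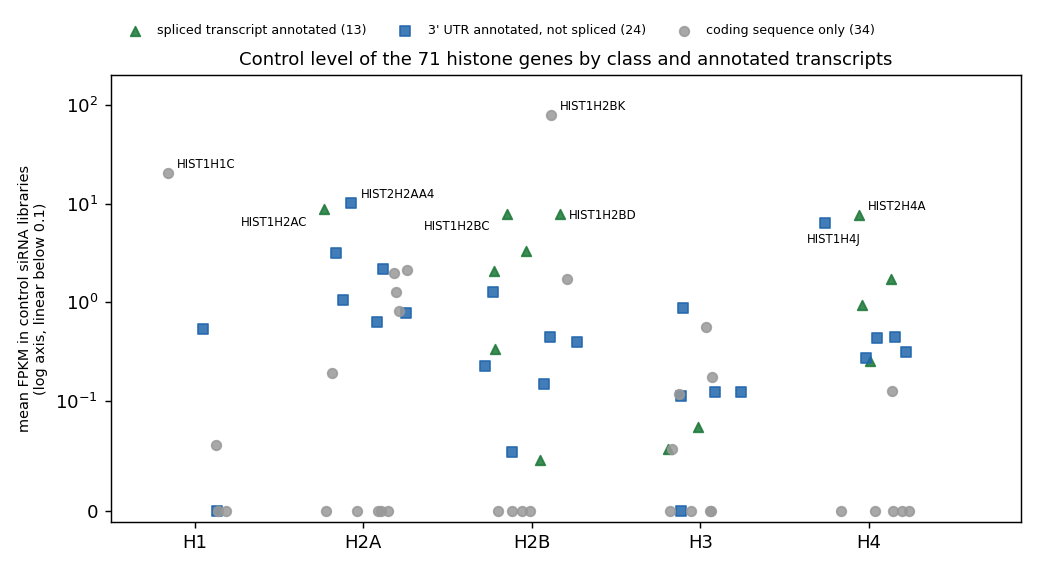
Mean FPKM in the 3 control libraries of each of the 71 histone genes (log axis, linear below 0.1), by class. Triangles mark the 13 genes with an annotated spliced transcript, squares the 24 others with an annotated 3′ UTR and circles the 34 with neither; HIST1H2BK, at 78.8 FPKM, lies above all others.

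Each siRNA was set against control, and the siRNAs against each other, in a limma model of log2(FPKM + 1) over 13777 genes with Benjamini-Hochberg adjustment; a gene was called at an adjusted p under 0.05. After E2F3 siRNA, 12 of the 24 tested members were called higher than control and 0 lower, against 21.1% higher and 16.4% lower among all genes tested. After E2F1 siRNA, 4 were higher than control and 0 lower, against 20.5% and 17.3% of all genes, so the share higher did not exceed that of all genes. Between the siRNAs, 10 were higher after E2F3 siRNA than after E2F1 siRNA and 0 lower, against 23.5% and 22.0%. At an unadjusted p under 0.05, 0 members were lower in each of the 3 limma comparisons and 12, 6 and 10 were higher. All genes were not counted at that threshold, so these numbers cannot be set against the adjusted shares above. The median log2 fold change of the tested members was 0.56, 0.14 and 0.34 in the same order, against 0.04, 0.03 and 0.02 over all genes. The comparisons with control share the control libraries. HIST2H4B, HIST1H3H and HIST4H4 would not have passed the filter without the E2F3 libraries, and HIST1H3B would have failed with any single group left out. The counts of tested members are therefore not independent of the level after E2F3 siRNA. Without any filter, 11, 3 and 5 of the 57 members with a value were higher, beside 2487, 2296 and 2971 of all 30309 genes. Without E2F1 replicate 3, 4 of the 24 members were higher after E2F3 than after E2F1 siRNA, beside 2815 of 13777 genes. In these 2 settings the share of members higher after E2F3 than after E2F1 siRNA did not exceed that of all genes. In bulk RNA, a change in the share of cells expressing a gene and a change in RNA per cell cannot be told apart. This holds for the share of cells in S phase.

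**Figure D3:**
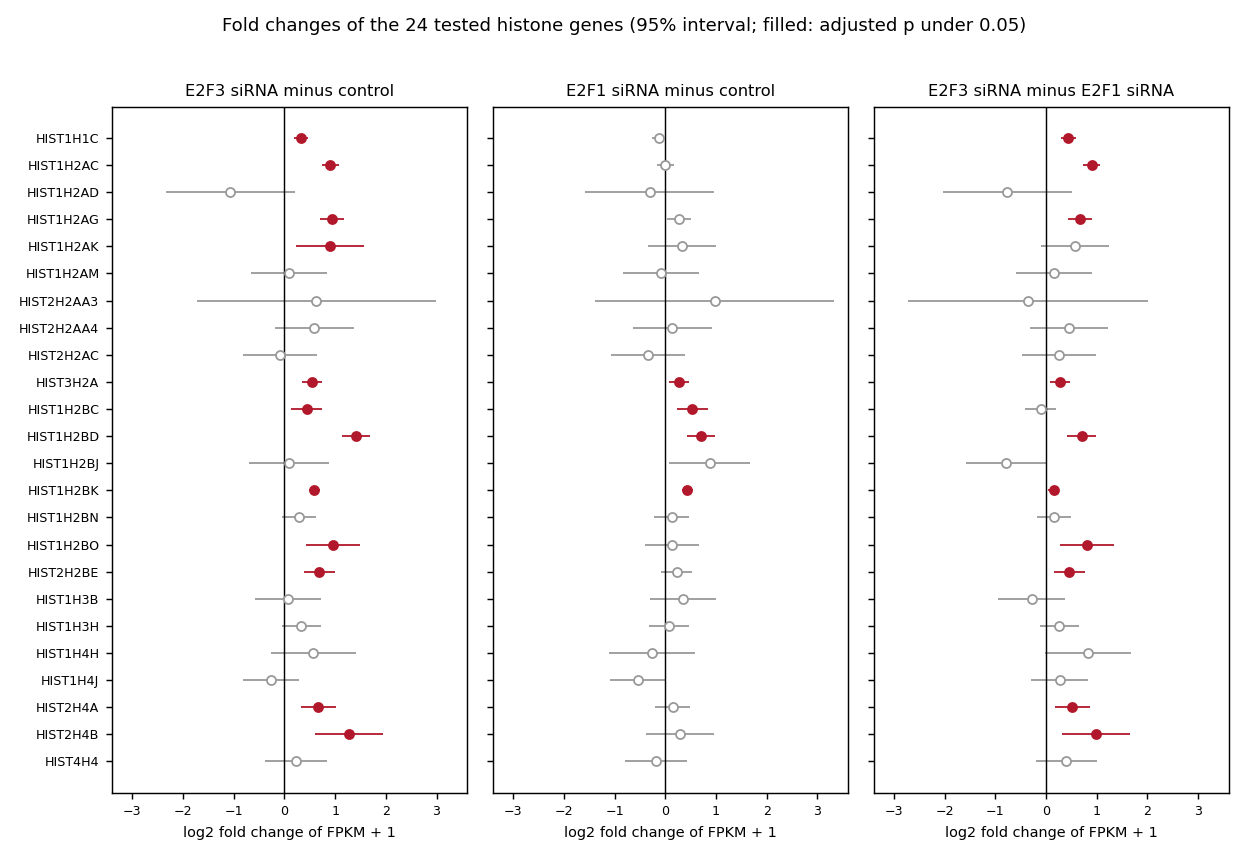
Log2 fold change of FPKM + 1 with its 95% interval for the 24 tested histone genes in the 3 comparisons. Filled points are called (12 for E2F3 siRNA minus control, 4 for E2F1 siRNA minus control, 10 for E2F3 siRNA minus E2F1 siRNA), and all of them lie to the right of 0.

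HIST1H1C was the only H1 gene tested. It had 24.8, 24.8 and 27.3 FPKM after E2F3 siRNA, 19.8, 17.2 and 18.8 FPKM after E2F1 siRNA, and 20.65, 20.22 and 20.02 FPKM in control. The E2F3 libraries stood above all 6 others, and the E2F1 and control libraries lay close together without overlapping. The log2 fold change was 0.32 ± 0.06 (SE; limma adjusted p = 0.00312) for E2F3 siRNA against control and 0.44 ± 0.06 (limma adjusted p = 0.000345) against E2F1 siRNA. Against control, E2F1 siRNA gave -0.12 ± 0.06 (limma adjusted p = 0.159). HIST1H1E, another somatic H1 gene, stayed below the filter.

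Of the 9 H2A genes tested, HIST1H2AC, HIST1H2AG, HIST3H2A and HIST1H2AK rose after E2F3 siRNA, and HIST3H2A alone was called after E2F1 siRNA. Among all genes, 21.1% and 20.5% were called higher in these comparisons with control. HIST1H2AC had 18.1, 15.5 and 18.1 FPKM after E2F3 siRNA, 8.27, 8.82 and 9.15 FPKM after E2F1 siRNA, and 8.58, 9.04 and 8.67 FPKM in control. The E2F3 libraries were far above the rest, while the E2F1 and control libraries overlapped. Its log2 fold change was 0.90 ± 0.07 against control (limma adjusted p = 1.57e-05) and 0.90 ± 0.07 against E2F1 siRNA (limma adjusted p = 9.6e-06). For E2F1 siRNA against control it was -0.0032 with a 95% interval of -0.17 to 0.16.

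HIST1H2AG had 2.87, 3.10 and 2.85 FPKM after E2F3 siRNA, 1.39, 1.40 and 1.66 FPKM after E2F1 siRNA, and 0.88, 1.07 and 1.21 FPKM in control. The 3 groups did not overlap. The log2 fold change was 0.94 ± 0.11 for E2F3 siRNA (limma adjusted p = 0.000114) and 0.28 ± 0.11 for E2F1 siRNA (limma adjusted p = 0.0693), each against control. HIST3H2A, from the small cluster on chromosome 1, likewise had groups that did not overlap, with 4.86, 4.93 and 5.52 FPKM after E2F3 siRNA, 4.31, 4.03 and 3.78 FPKM after E2F1 siRNA, and 3.43, 3.02 and 3.09 FPKM in control. Its log2 fold change was 0.55 ± 0.09 for E2F3 siRNA (limma adjusted p = 0.000927) and 0.27 ± 0.09 for E2F1 siRNA (limma adjusted p = 0.0343), each against control. The smaller call was lost without E2F1 replicate 1 or 2 or control replicate 2 or 3, without a filter, with upper-quartile scaling and with the 6 libraries compared alone (adjusted p up to 0.108). The difference of HIST3H2A between the siRNAs was 0.28 ± 0.09 (limma adjusted p = 0.0266). Its call was lost without a filter or without E2F1 replicate 2 or 3 or E2F3 replicate 3 (adjusted p up to 0.0941).

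HIST1H2AK had 2.70, 2.55 and 1.82 FPKM after E2F3 siRNA, 1.58, 0.38 and 2.19 FPKM after E2F1 siRNA, and 0.35, 1.29 and 0.83 FPKM in control. The E2F3 and control libraries did not overlap, but the E2F1 libraries overlapped both. Its log2 fold change of 0.90 ± 0.30 (limma adjusted p = 0.0389) for E2F3 siRNA against control was no longer called when any single E2F3 library or control replicate 1 or 3 was left out, without a filter or with an added constant of 0.1 (adjusted p up to 0.128). For E2F1 siRNA against control it was not called (limma adjusted p = 0.415), but was without E2F1 replicate 2 (adjusted p = 0.0499). It lies within HIST1H2BN on the opposite strand, and without a stated use of strand the reads of these genes cannot be told apart.

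HIST2H2AA4 had the highest mean of the H2A genes over the 9 libraries, although HIST1H2AC was higher after E2F3 siRNA (17.2 against 15.0 FPKM). It had 14.5, 18.3 and 12.3 FPKM after E2F3 siRNA, 12.9, 15.0 and 5.94 FPKM after E2F1 siRNA, and 13.1, 11.7 and 5.50 FPKM in control. Its coding sequence is identical to that of HIST2H2AA3, and how reads that match both copies were assigned is not stated. HIST2H2AA3 had 0, 2.93 and 6.06 FPKM after E2F3 siRNA, 4.60, 0 and 9.34 FPKM after E2F1 siRNA, and 0, 0 and 6.57 FPKM in control. In each group replicate 3 was the highest library for HIST2H2AA3 and the lowest for HIST2H2AA4. The sum of the pair was 14.5, 21.3 and 18.4 FPKM after E2F3 siRNA, 17.5, 15.0 and 15.3 FPKM after E2F1 siRNA, and 13.1, 11.7 and 12.1 FPKM in control, so both siRNA groups lay above control in it. Neither copy was called, with log2 fold changes of 0.59 ± 0.35 for HIST2H2AA4 and 0.62 ± 1.05 for HIST2H2AA3 for E2F3 siRNA against control. HIST1H2AD, HIST1H2AM and HIST2H2AC were not called either. HIST1H2AD was the member with the most negative value in that comparison, -1.07 ± 0.57 (limma adjusted p = 0.168), and was called lower there without control replicate 3 (-1.73).

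H2B genes held 60.8% of the members' FPKM after E2F3 siRNA, 65.9% after E2F1 siRNA and 58.3% in control. FPKM shares are not shares of fragments. In the first control library 1 estimated fragment was worth 0.275 FPKM for HIST1H2BK and 0.0895 FPKM for HIST1H1C. Over all libraries these genes averaged an estimated 364 and 237 fragments. After E2F3 siRNA 5 of the 7 tested rose and after E2F1 siRNA 3, beside 21.1% and 20.5% of all genes called higher. HIST1H2BD showed the largest called change of all members on the log2(FPKM + 1) scale. With an added constant of 0.1 the change of HIST2H4B was larger (2.85, against 1.51 for HIST1H2BD). HIST1H2BD had 24.8, 19.8 and 23.2 FPKM after E2F3 siRNA, 14.8, 13.1 and 12.5 FPKM after E2F1 siRNA, and 9.67, 7.36 and 6.78 FPKM in control. The 3 groups did not overlap. The log2 fold change was 1.41 ± 0.13 for E2F3 siRNA (limma adjusted p = 2.48e-05) and 0.70 ± 0.13 for E2F1 siRNA (limma adjusted p = 0.00164), each against control. E2F3 siRNA exceeded E2F1 siRNA by 0.70 ± 0.13 on the same scale (limma adjusted p = 0.00137). HIST1H2BK, with the values given above, rose by 0.59 ± 0.05 after E2F3 siRNA (limma adjusted p = 1.3e-05) and by 0.44 ± 0.05 after E2F1 siRNA (limma adjusted p = 7.51e-05). Its difference between the siRNAs was 0.15 ± 0.05 (limma adjusted p = 0.0258) and lost its call without E2F1 replicate 1 or 3 or E2F3 replicate 2, and with the 6 libraries compared alone (adjusted p up to 0.0946).

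HIST1H2BC rose after both siRNAs. It had 13.5, 10.4 and 9.40 FPKM after E2F3 siRNA, 13.6, 11.4 and 10.6 FPKM after E2F1 siRNA, and 8.05, 8.64 and 6.91 FPKM in control. Both siRNA groups lay above control and overlapped each other. Its log2 fold change was 0.44 ± 0.14 for E2F3 siRNA (limma adjusted p = 0.0297) and 0.54 ± 0.14 for E2F1 siRNA (limma adjusted p = 0.0111). The difference between the siRNAs was -0.10 with a 95% interval of -0.40 to 0.20. The E2F3 call was lost without E2F3 replicate 1 or control replicate 1 or 3, without a filter and with a correction for GC content and length (adjusted p up to 0.101).

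HIST1H2BO and HIST2H2BE rose after E2F3 siRNA against both other groups. HIST1H2BO had 4.39, 3.92 and 4.23 FPKM after E2F3 siRNA, 1.23, 3.30 and 1.66 FPKM after E2F1 siRNA, and 1.07, 2.21 and 1.88 FPKM in control. HIST2H2BE had 2.63, 2.90 and 2.43 FPKM after E2F3 siRNA, 1.98, 1.66 and 1.34 FPKM after E2F1 siRNA, and 0.95, 1.43 and 1.45 FPKM in control. For both genes every E2F3 library was above the other 6, and the E2F1 and control libraries overlapped. Against control the log2 fold changes were 0.95 ± 0.24 for HIST1H2BO (limma adjusted p = 0.0106) and 0.69 ± 0.14 for HIST2H2BE (limma adjusted p = 0.00313). Against E2F1 siRNA they were 0.81 ± 0.24 (limma adjusted p = 0.0181) and 0.46 ± 0.14 (limma adjusted p = 0.0188). The calls against E2F1 siRNA were lost without a filter or without E2F1 replicate 3, for HIST1H2BO also without E2F1 replicate 1 or E2F3 replicate 1, and for HIST2H2BE also without E2F3 replicate 2 (adjusted p up to 0.0693 and 0.0684).

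HIST1H2BN and HIST1H2BJ were not called. HIST1H2BJ, one of the genes known to give a polyadenylated transcript, had 1.33, 1.42 and 5.10 FPKM after E2F3 siRNA, 3.0, 6.38 and 5.02 FPKM after E2F1 siRNA, and 1.61, 2.17 and 2.47 FPKM in control. E2F3 replicate 3 stood apart from the other E2F3 libraries, and the E2F1 libraries lay above control. The log2 fold change for E2F1 siRNA against control was 0.88 ± 0.35 (limma adjusted p = 0.0785), and it was called without E2F1 replicate 1, without E2F3 replicate 3 or with the 6 libraries compared alone. Between E2F3 and E2F1 siRNA it was -0.79 ± 0.35 (limma adjusted p = 0.0971), and it was called lower without E2F3 replicate 3 (-1.24).

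**Figure D4:**
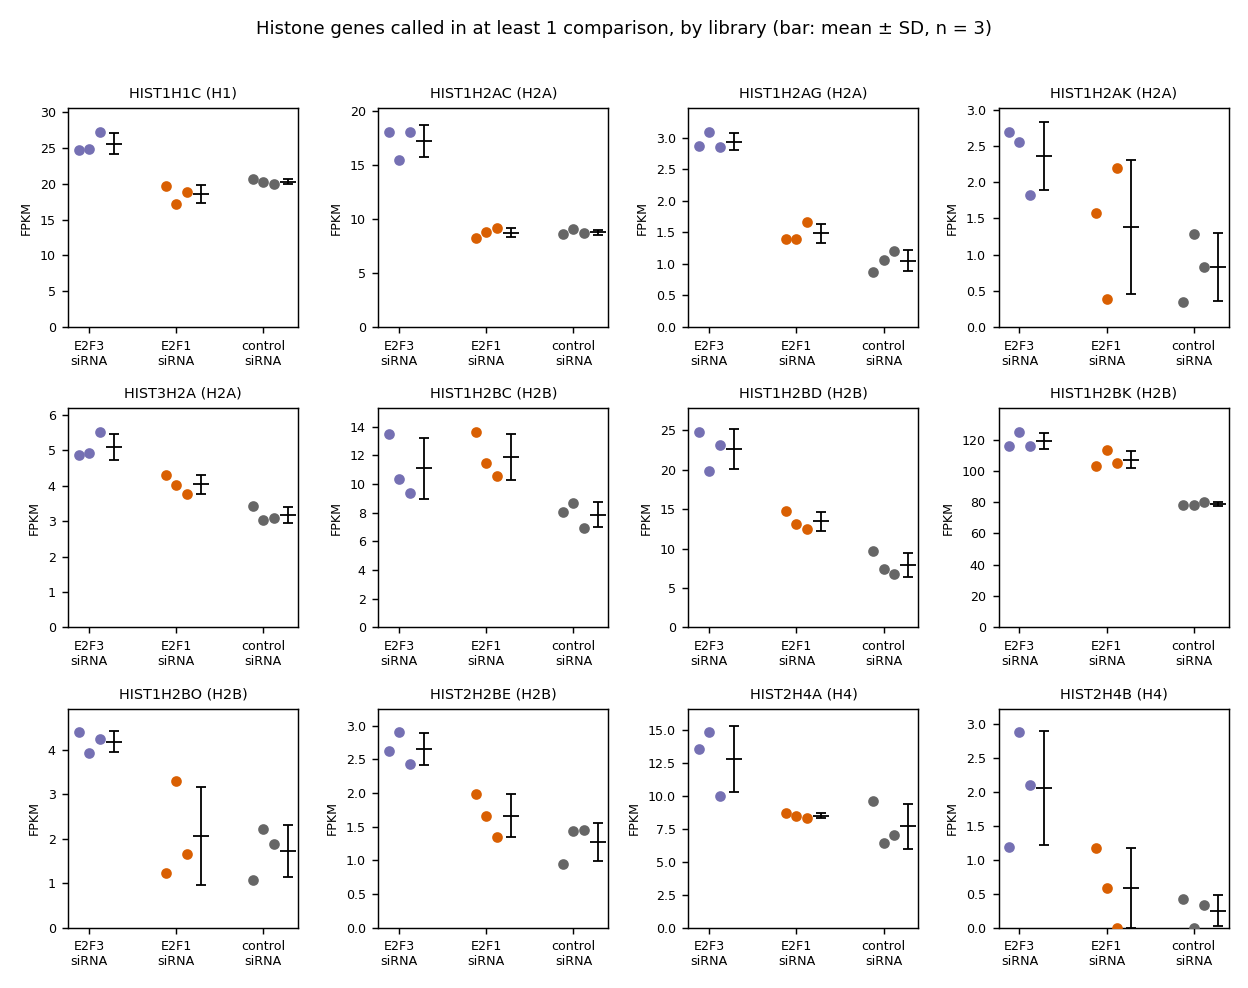
FPKM of the 12 called histone genes in each library (points), with the mean and SD of each group of 3 (bars). HIST1H2AC lies at 15.5 to 18.1 FPKM after E2F3 siRNA, above the 8.27 to 9.15 FPKM after E2F1 siRNA and the 8.58 to 9.04 FPKM in control, whereas for HIST1H2BC the siRNA groups overlap.

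H3 genes were barely detected, and neither tested gene was called. HIST1H3H, the highest, had 1.62, 1.5 and 1.0 FPKM after E2F3 siRNA, 1.52, 0.72 and 0.75 FPKM after E2F1 siRNA, and 0.78, 0.92 and 0.91 FPKM in control. The E2F3 libraries were above control, and the E2F1 libraries spanned both. The log2 fold change for E2F3 siRNA against control was 0.33 ± 0.17 (limma adjusted p = 0.159). HIST1H3B changed by 0.07 ± 0.29 (limma adjusted p = 0.873). HIST2H3A and HIST2H3C, identical in coding sequence, carried the same value as each other in all 9 libraries and stayed below the filter.

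Of the 5 H4 genes tested, HIST2H4A and HIST2H4B rose after E2F3 siRNA, beside 21.1% of all genes. HIST2H4A had 13.5, 14.8 and 9.97 FPKM after E2F3 siRNA, 8.72, 8.45 and 8.29 FPKM after E2F1 siRNA, and 9.59, 6.41 and 7.04 FPKM in control. HIST2H4B, identical to it in coding sequence, had 1.19, 2.88 and 2.11 FPKM after E2F3 siRNA, 1.18, 0.58 and 0 FPKM after E2F1 siRNA, and 0.43, 0 and 0.33 FPKM in control. How reads that match both copies were assigned is not stated, and both genes overlap an H3 gene on the opposite strand (HIST2H3C and HIST2H3A). The sum of the pair was 14.7, 17.7 and 12.1 FPKM after E2F3 siRNA, 9.90, 9.03 and 8.29 FPKM after E2F1 siRNA, and 10.0, 6.41 and 7.37 FPKM in control. Every E2F3 library was above the other 6 in that sum. Against control, E2F3 siRNA gave log2 fold changes of 0.67 ± 0.15 for HIST2H4A (limma adjusted p = 0.00744) and 1.27 ± 0.30 for HIST2H4B (limma adjusted p = 0.00849). HIST2H4B would not have entered the test without its E2F3 libraries. Against E2F1 siRNA, HIST2H4A changed by 0.52 ± 0.15 after E2F3 siRNA (limma adjusted p = 0.0199). HIST2H4B changed by 0.98 ± 0.30 (limma adjusted p = 0.0233). Both calls were lost without a filter, without E2F1 replicate 3 or without E2F3 replicate 2. HIST2H4A also lost it without E2F3 replicate 1, and HIST2H4B without E2F3 replicate 3 or with an added constant of 0.1. Adjusted p reached 0.0716 and 0.0843.

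The other H4 genes were not called. HIST1H4J was lower in point estimate in both comparisons with control, at -0.27 ± 0.25 for E2F3 siRNA (limma adjusted p = 0.432) and -0.54 ± 0.25 for E2F1 siRNA (limma adjusted p = 0.12). Summed with its identical copy HIST1H4K it had 4.67, 7.15 and 5.53 FPKM after E2F3 siRNA, 4.91, 5.09 and 2.51 FPKM after E2F1 siRNA, and 7.38, 5.01 and 6.64 FPKM in control, with all groups overlapping. HIST1H4H and HIST4H4 stood at 0.57 ± 0.38 and 0.23 ± 0.27 for E2F3 siRNA against control.

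Summed over each class, FPKM were highest after E2F3 siRNA in all 5 classes by mean, and in H1, H2A, H2B and H4 every E2F3 library was above the other 6. H2B sums were 169, 170 and 168 FPKM after E2F3 siRNA, 144, 155 and 142 FPKM after E2F1 siRNA, and 104, 105 and 105 FPKM in control, and the 3 groups did not overlap. H2A sums averaged 52.0 ± 2.89 FPKM after E2F3 siRNA, 37.3 ± 0.37 FPKM after E2F1 siRNA and 33.1 ± 2.66 FPKM in control (SD, n = 3 each). H1 sums averaged 26.3 ± 1.41, 19.3 ± 1.34 and 20.9 ± 0.22 FPKM in the same order. H4 sums averaged 27.2 ± 3.14, 16.9 ± 2.93 and 18.5 ± 4.54 FPKM in that order. In H3 the sums of 3.49 ± 0.77, 2.81 ± 0.45 and 2.28 ± 1.2 FPKM overlapped.

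Over all 71 members the sum was 278 ± 4.38 FPKM after E2F3 siRNA, 223 ± 6.5 FPKM after E2F1 siRNA and 179 ± 3.64 FPKM in control, that is 1.55 and 1.24 times control. Without HIST1H2BK these means were 159, 116 and 101 FPKM, so the ratio to control was 1.58 for E2F3 siRNA and 1.15 for E2F1 siRNA. By cluster, the E2F3 ratio to control was 1.54 for HIST1, 1.58 for HIST2, 1.53 for HIST3 and 1.45 for the single HIST4 gene. The HIST4 gene was not called, and its E2F3 and control libraries overlapped. HIST3H2A held 5.10 of the 5.28 FPKM of HIST3 after E2F3 siRNA. Its neighbours HIST3H2BB (0.12 against 0.15 FPKM) and HIST3H3 (0.05 against 0.11 FPKM) had lower means than in control. Both lay near the floor, at an estimated 2.21 to 15.2 fragments per library for HIST3H2BB and 0 to 1.04 for HIST3H3. For HIST3H2BB the control libraries had 0.25, 0.10 and 0.10 FPKM, so its higher control mean came from 1 library. All members together made up 0.0328 to 0.0336% of the FPKM total after E2F3 siRNA, 0.0268 to 0.0280% after E2F1 siRNA and 0.0211 to 0.0221% in control.

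**Figure D5:**
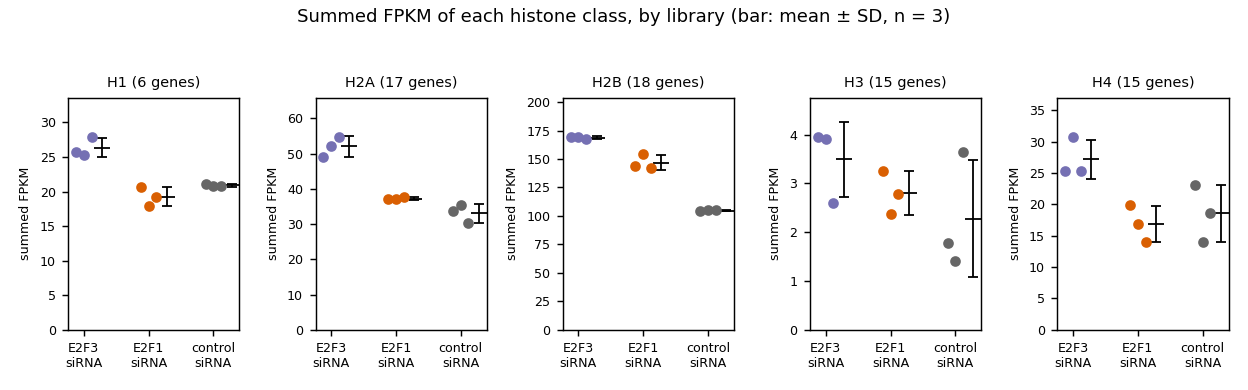
Summed FPKM of the H1, H2A, H2B, H3 and H4 genes in each library (points), with the mean and SD of each group of 3 (bars). H2B sums lie at 168 to 170 FPKM after E2F3 siRNA, 142 to 155 FPKM after E2F1 siRNA and 104 to 105 FPKM in control, while the H3 sums overlap.

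Many H2A and H2B genes sit head to head and share a promoter region; 23 members had such a partner with starts under 1000 bases apart. The levels of partners are given side by side. HIST1H2AC and HIST1H2BC start 219 bases apart. HIST1H2AC averaged 17.2 FPKM after E2F3 siRNA, 8.75 FPKM after E2F1 siRNA and 8.76 FPKM in control, whereas HIST1H2BC averaged 11.1, 11.9 and 7.87 FPKM. Only the H2B partner was called after E2F1 siRNA; the difference between partners was not tested. HIST1H2AG and HIST1H2BJ start 292 bases apart, and HIST1H2AG averaged 2.94, 1.48 and 1.05 FPKM against 2.62, 4.80 and 2.08 FPKM for HIST1H2BJ, in the order E2F3 siRNA, E2F1 siRNA, control. HIST1H2BK and HIST1H2AH start 331 bases apart, with 119, 107 and 78.8 FPKM for HIST1H2BK and 0.71, 0.42 and 0 FPKM for HIST1H2AH. HIST3H2A averaged 5.10, 4.04 and 3.18 FPKM, and its partner HIST3H2BB 0.12, 0.06 and 0.15 FPKM.

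The counts by annotation stand beside 21.1% of all genes called higher after E2F3 siRNA than control, 20.5% after E2F1 siRNA than control and 23.5% after E2F3 than after E2F1 siRNA. Of the 71 members, 13 had a spliced form, of which 9 were tested, 5 were called higher after E2F3 siRNA and 2 after E2F1 siRNA. Of the 58 without one, 15 were tested, 7 were higher after E2F3 siRNA and 2 after E2F1 siRNA. The median control level was 1.73 FPKM with a spliced form and 0.13 FPKM without. In the 22 members annotated more than 100 bases past the stem-loop, 11 were tested and 7 rose after E2F3 siRNA. In the 9 others with a loop, 4 were tested and 1 rose. The member that rose was HIST1H2BD, whose spliced transcript has a 3′ UTR of 384 bases without a loop. This grouping measured only transcripts that hold the loop, so its 2 sides do not separate short from long transcripts. The 9 members described in the literature as also giving polyadenylated transcripts are HIST1H1C, HIST1H2AC, HIST1H2BD, HIST1H2BJ, HIST1H2BK, HIST2H2AA4, HIST2H2BE, HIST1H4H and HIST3H2A. They held 76.6% of the members' FPKM after E2F3 siRNA, 76.6% after E2F1 siRNA and 74.8% in control. Of these 9, 6 were higher after E2F3 siRNA than control, 3 were higher after E2F1 siRNA than control, and 6 were higher after E2F3 than after E2F1 siRNA.

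Of the 47 members below the filter, 5 were H1, 8 H2A, 11 H2B, 13 H3 and 10 H4 genes. They summed to 10.3 ± 1.02 FPKM after E2F3 siRNA, 7.53 ± 1.23 FPKM after E2F1 siRNA and 6.32 ± 1.39 FPKM in control (SD, n = 3 each), which is 3.70%, 3.38% and 3.52% of all members' FPKM. At least 1 library reached 1 FPKM in 7 of them: HIST1H2AE, HIST1H2AI, HIST1H2BL, HIST1H4C, HIST1H4D, HIST1H4K and HIST1H4L. HIST1H2AI was the highest of these after E2F3 siRNA, with 2.23, 1.30 and 0.70 FPKM, against 0.63, 0.47 and 0.25 FPKM after E2F1 siRNA and 0.85, 0.84 and 0.23 FPKM in control, and the control libraries overlapped those of both siRNAs.

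Of 46 listed factors that make, process or degrade histone mRNA, 9 were higher and 8 lower after E2F3 siRNA than control. These were 19.6% and 17.4%, against 21.1% and 16.4% of all genes tested, so these shares lay near those of all genes. After E2F1 siRNA 16 were higher and 3 lower than control (34.8% and 6.52%, against 20.5% and 17.3% of all genes). Between the siRNAs, 3 were higher and 20 lower after E2F3 siRNA than after E2F1 siRNA (6.52% and 43.5%, against 23.5% and 22.0%). Their median log2 fold changes were 0.00034, 0.14 and -0.11 in the same order, against 0.04, 0.03 and 0.02 over all genes. SLBP, the stem-loop binding protein, had 63.7, 65.2 and 61.4 FPKM after E2F3 siRNA, 84.5, 89.7 and 84.5 FPKM after E2F1 siRNA, and 74.4, 72.4 and 72.5 FPKM in control. Its log2 fold change against control was -0.20 ± 0.04 for E2F3 siRNA (limma adjusted p = 0.00393) and 0.23 ± 0.04 for E2F1 siRNA (limma adjusted p = 0.00157). NPAT, the coactivator of the clusters, was not called, at 0.20 ± 0.15 for E2F3 siRNA and 0.01 ± 0.15 for E2F1 siRNA against control. CASP8AP2, a histone locus body protein, was not called in any comparison.

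The cyclins that activate NPAT through CDK2 were lower after E2F3 siRNA. CCNE2 averaged 21.9 ± 0.78 FPKM after E2F3 siRNA, 35.5 ± 1.81 FPKM after E2F1 siRNA and 40.3 ± 0.68 FPKM in control, a log2 fold change of -0.85 for E2F3 siRNA against control (limma adjusted p = 2.23e-06). CCNE1 averaged 8.27 ± 0.78, 15.5 ± 0.88 and 13.7 ± 0.34 FPKM in the same order, a change of -0.67 (limma adjusted p = 0.000100). LSM11, a subunit of the U7 particle, averaged 2.81 ± 0.20, 4.05 ± 0.14 and 4.65 ± 0.14 FPKM in that order, a change of -0.57 (limma adjusted p = 0.000433). After E2F1 siRNA the largest called changes among the factors were in ZNF473, a zinc finger protein of the U7 processing machinery, at 0.62, LSM7 at 0.48 and COIL, the Cajal body protein coilin, at 0.46. Between E2F3 and E2F1 siRNA they were in CCNE1 at -0.84, CCNE2 at -0.67 and ZNF473 at -0.63.

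Of 13 listed histone variants and genes for replication-independent histones, 10 were tested. After E2F3 siRNA 3 were higher and 5 lower than control, where 21.1% and 16.4% of all genes were called. After E2F1 siRNA 4 were higher and 0 lower than control, where 20.5% and 17.3% of all genes were called. Between the siRNAs, 2 were higher and 6 lower after E2F3 siRNA, beside 23.5% and 22.0% of all genes. Their median log2 fold changes were -0.057, 0.12 and -0.32 in the same order. H2AFJ, an H2A variant, averaged 70.2 ± 4.0 FPKM after E2F3 siRNA, 43.0 ± 2.04 FPKM after E2F1 siRNA and 43.4 ± 2.29 FPKM in control, a change of 0.68 for E2F3 siRNA against control (limma adjusted p = 2.08e-05). H2AFX, the variant phosphorylated at DNA breaks, rose by 0.53 (limma adjusted p = 0.00114), and H1F0, a linker histone of resting cells, fell by 0.57 (limma adjusted p = 5.83e-05) in the same comparison. CENPA, the centromeric H3 variant, averaged 9.66 ± 2.40 FPKM after E2F3 siRNA, 16.7 ± 0.68 FPKM after E2F1 siRNA and 8.55 ± 0.40 FPKM in control, and rose by 0.89 after E2F1 siRNA (limma adjusted p = 0.000466). H3F3A, a gene for the variant H3.3, and H2AFY, for macroH2A, rose by 0.34 and 0.27 after E2F1 siRNA. Between E2F3 and E2F1 siRNA the largest called changes were in CENPA at -0.76, H2AFJ at 0.70 and H2AFY at -0.54.

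Of 26 histone chaperones and import factors, 8 were higher and 4 lower after E2F3 siRNA than control (30.8% and 15.4%, against 21.1% and 16.4% of all genes). After E2F1 siRNA 15 were higher and 2 lower than control (57.7% and 7.69%, against 20.5% and 17.3%). Between the siRNAs 1 was higher and 14 lower after E2F3 siRNA (3.85% and 53.8%, against 23.5% and 22.0%). Their median log2 fold changes were -0.0018, 0.20 and -0.18 in the same order. The largest called changes after E2F3 siRNA were in TONSL, a reader of newly deposited H4, at -0.89, ASF1A, an H3-H4 chaperone, at -0.81, and NASP, which keeps a soluble H3-H4 pool, at 0.44. After E2F1 siRNA they were in CHAF1B, a subunit of the chromatin assembly factor CAF-1, at 0.59, ANP32B at 0.51 and RBBP4, another CAF-1 subunit, at 0.49. Between E2F3 and E2F1 siRNA they were in TONSL at -0.66, ASF1A at -0.64 and IPO4, an importin for H3 and H4, at -0.43. TONSL averaged 3.34 ± 0.37 FPKM after E2F3 siRNA, 5.84 ± 0.63 FPKM after E2F1 siRNA and 7.07 ± 0.51 FPKM in control (SD, n = 3 each).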

How the data were processed

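RNA of 9 HK1 libraries was sequenced, extracted by mirVana kit per the labels' protocols. The submitters' processing notes name the tools DESeq, HTSeq, HISAT2, TopHat and Trimmomatic and the build GRCh38; tool versions, roles and use of strand are not stated there. The authors deposited FPKM per gene and library, to 2 decimals; 12 of 59119 lines per file hold no value and were left out. The sources used here give no library depths, so no counting intervals are given, and the fragment numbers in the text are estimates.

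Values were taken as log2(FPKM + 1). Ensembl genes were kept where 3 or more libraries reached 1 FPKM (13777 genes). Fold changes on this scale understate those of low genes. A mean per group over all 9 libraries was fitted with limma 3.58.1 (trend, R 4.3.3), with two-sided tests and p-values adjusted over the 13777 genes by Benjamini-Hochberg. The code was tested on simulated data. The planned count test was not used, since the files hold no counts. Class sums have no test. Every member passing the filter is named. Values per library are given for called members and for the highest of each class. Of each other gene list, the 3 called genes with the largest change per comparison are named. Values of further members are examples chosen after they were seen, as was the estimate of fragments. The members and lists were chosen with earlier results of these data known. Stem-loops and transcripts come from GENCODE 29, promoters from RefSeq (GRCh38.p14).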

Additional observations from a re-analysis of the deposited data

How the results depend on the processing

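Of the 26 called member values, 17 kept their direction and their call under each of the 17 other settings in which they were tested; 6 of these 17 were not tested with a filter of 5 FPKM. The other 9 lost the call in 3 to 8 settings each, with no change of sign. The number higher after E2F3 siRNA than control was 6 with a filter of 5 FPKM, which leaves 10 members tested, beside 2505 of all 10249 genes. The number higher after E2F1 siRNA than control was 2 of 24 at an adjusted p under 0.01, beside 1849 of 13777 genes. For E2F3 against E2F1 siRNA, 5 were higher with the filter of 5 FPKM, beside 2594 of 10249 genes. Without any filter 5 of 57 were higher in that comparison, beside 2971 of 30309 genes. At an adjusted p under 0.01, 4 of 24 were higher in it, beside 2171 of 13777 genes. The shares without a filter and at 0.01 lay near those of all genes. The number for E2F3 against E2F1 siRNA ranged from 4 to 10 when 1 library was left out. It was 4 without E2F1 replicate 3, beside 2815 of 13777 genes, and the cause was not tested. The number lower ranged from 0 to 1 for E2F3 siRNA against control and from 0 to 1 between the siRNAs when 1 library was left out. RLE scaling gave mean sums of 165 FPKM for H2B after E2F3 siRNA, 36.9 FPKM for H2A after E2F1 siRNA and 105 FPKM for H2B in control. Upper-quartile scaling gave 171 FPKM for H2B after E2F3 siRNA and 36.6 FPKM for H2A after E2F1 siRNA.

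Changes of sign were limited to values that were not called. A correction for GC content and length gave 0.072 for HIST2H2AC after E2F3 siRNA, and 0.012 for HIST1H2AC and 0.066 for HIST1H2AM after E2F1 siRNA, each against control. Leaving out 1 library gave these ranges of log2 fold change for E2F3 siRNA against control: HIST1H2AM -0.18 to 0.40, HIST1H2BJ -0.37 to 0.33, HIST1H3B -0.23 to 0.29, HIST2H2AC -0.41 to 0.23 and HIST4H4 -0.022 to 0.53. For E2F1 siRNA against control they were HIST1H2AC -0.033 to 0.032, HIST1H2AD -0.97 to 0.20, HIST1H2AM -0.34 to 0.24, HIST1H2BN -0.044 to 0.21, HIST1H2BO -0.14 to 0.34, HIST1H3H -0.11 to 0.17, HIST1H4H -0.61 to 0.12 and HIST2H2AA4 -0.21 to 0.51. For E2F3 against E2F1 siRNA they were HIST1H2AM -0.032 to 0.45, HIST1H2BC -0.24 to 0.00036, HIST2H2AA3 -1.33 to 0.45 and HIST2H2AC -0.070 to 0.58.

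Libraries with the same replicate number correlated at -0.11 to 0.11 in their deviations from the group means, so no pairing by number was seen over all genes. Such a correlation cannot show a batch that touches only part of the genes. The estimated depth was lowest in replicate 2 and highest in replicate 3 in every group. With a replicate block, 12 members were higher after E2F3 siRNA and 4 after E2F1 siRNA, each against control, and 11 were higher after E2F3 than after E2F1 siRNA. Of all 13777 genes, 2730, 2678 and 3082 were higher in the same order. The members called with the block differed in part from those called without it. For E2F3 siRNA against control, HIST2H2AA4 was called with the block (adjusted p = 0.0267) and HIST1H2AK was not (adjusted p = 0.0683). For E2F1 siRNA against control, HIST1H2BJ was called (adjusted p = 0.0407) and HIST3H2A was not (adjusted p = 0.0582). Between the siRNAs, HIST1H4H was called (adjusted p = 0.0499). Of 15 tested members with an estimate, 7 rested on fewer than 20 estimated fragments on average, which limits their precision.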
